A study of Mus musculus with 2 samples.

Results

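Small leucine-rich proteoglycans, the large proteoglycan versican, fibronectin and the matricellular proteins were followed here as 10 genes of 22711 listed for 2 lines of immortal mouse embryonic fibroblasts: Dcn, Lum, Fmod, Vcan, Fn1, Sparc, Postn, Tnc, Thbs1 and Thbs2. They were taken by name, and all 10 are listed in both lines. They were chosen by their summed expression and B6 share in these same libraries, so those values are given as descriptions. PWK-Xi is the line in which the PWK/PhJ X chromosome is inactive, labelled C57BL/6N X PWK/PhJ, and B6-Xi is the line in which the C57BL/6N X chromosome is inactive, labelled PWK/PhJ X C57BL/6N. Both are hybrids of C57BL/6N (B6) and PWK/PhJ (PWK), both were grown on gelatin in serum-containing medium, and neither carries a treatment in the labels. There was 1 library per line, prepared from polyadenylated RNA by Smart-seq2, so no value has a replicate error and no test was possible. What else sets the cultures apart is not stated, so the silent X and any other difference between them cannot be told apart.

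The extracellular matrix of fibroblasts is a collagen network to which smaller proteins are bound. Small leucine-rich proteoglycans such as decorin (Dcn), lumican (Lum) and fibromodulin (Fmod) bind collagen fibrils and set their spacing and thickness, and decorin also binds growth factors. Versican (Vcan) is a large chondroitin sulfate proteoglycan that binds hyaluronan and gives loose, hydrated matrix. Fibronectin (Fn1) is assembled into fibrils by integrins. Matricellular proteins, here SPARC, periostin (Postn), tenascin-C (Tnc) and the thrombospondins (Thbs1, Thbs2), are secreted into the matrix but serve mainly as regulators of adhesion, growth factor activity and repair.

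The sequence upstream of the start site is shown for members whose difference between the lines is described below: Tnc, Vcan and Thbs2, which were higher in PWK-Xi, and Postn, which was within 2-fold. Each is the 250 bases before an annotated start in RefSeq (GRCm38.p6, a later build than the mm9 that the submitters' processing notes name), 5′ to 3′ on the gene's strand, with matches in capitals to the TATA box (TATAAA), the GC box (GGGCGG) or the CCAAT box (CCAAT) on either strand.
Tnc, chr4:64047016-64047265, minus strand: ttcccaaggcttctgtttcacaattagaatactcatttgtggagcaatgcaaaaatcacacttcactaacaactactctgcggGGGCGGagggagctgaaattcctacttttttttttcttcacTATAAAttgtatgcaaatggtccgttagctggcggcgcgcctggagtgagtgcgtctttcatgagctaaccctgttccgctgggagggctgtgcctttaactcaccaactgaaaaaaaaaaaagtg
Vcan, chr13:89742513-89742762, minus strand: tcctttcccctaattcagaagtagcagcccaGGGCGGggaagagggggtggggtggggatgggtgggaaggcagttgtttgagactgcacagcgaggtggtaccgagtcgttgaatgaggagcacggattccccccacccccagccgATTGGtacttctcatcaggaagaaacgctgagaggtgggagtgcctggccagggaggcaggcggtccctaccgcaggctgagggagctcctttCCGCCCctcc
Thbs2, chr17:14694263-14694512, minus strand: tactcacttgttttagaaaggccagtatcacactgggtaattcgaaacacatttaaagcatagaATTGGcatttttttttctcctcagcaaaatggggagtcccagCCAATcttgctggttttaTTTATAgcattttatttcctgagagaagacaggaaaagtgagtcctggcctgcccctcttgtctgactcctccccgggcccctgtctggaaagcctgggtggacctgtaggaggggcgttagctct
Postn, chr3:54360857-54361106, plus strand: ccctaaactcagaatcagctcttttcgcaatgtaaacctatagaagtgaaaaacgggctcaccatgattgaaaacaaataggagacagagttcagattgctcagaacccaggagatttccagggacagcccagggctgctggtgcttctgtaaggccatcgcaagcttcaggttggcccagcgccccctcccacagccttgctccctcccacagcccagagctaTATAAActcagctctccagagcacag

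The promoters did not share one set of letters. Postn has a TATAAA match at position -26, counted back from -1 at the base before the start, the distance at which a TATA box usually lies. In the windows shown, Tnc and Thbs2 each have a match at -126, far from that distance, and Vcan has none. Vcan has GC box matches at -219 and -10 and a CCAAT match at -103, Tnc has a GC box match at -167, and Thbs2 has CCAAT matches at -186 and -144. None of these matches overlaps another. AP-1 (TGANTCA), CRE (TGACGTCA) and CArG box letters were searched on both strands as well and are in none of the 4 windows. Of all 32841 promoter windows of this length, 12.4% hold TATAAA at any position, 32.7% the GC box and 33.9% CCAAT. By letters alone, none of the matches is thus rare. The AP-1 letters are in 6.75% of the windows, the CRE in 1.55% and a CArG box in 1.47%. How often TATAAA lies at the position seen in Postn was not counted. GC content was 44.8% for Tnc, 62.4% for Vcan, 46.8% for Thbs2 and 52.0% for Postn. A promoter was in the table for 6 of the 10 members. For Tnc it held another annotated start, 79 bases downstream, whose window overlaps an exon of the gene and is not shown. Counted from that start, the TATAAA match of Tnc lies at -205. Close to that start the window also holds TATATAA, letters that differ from TATAAA and were not searched.

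The values are FPKM (fragments scaled to transcript length and library size) that the authors deposited separately for the B6 and the PWK allele, and a level below is the sum of both. The way reads were sorted by strain is not stated, so the order of different genes in a line is less certain than the same gene set across the lines. No counts were available, so the depth behind a value is unknown and no counting interval is given. In PWK-Xi 12907 genes were above 0, and in B6-Xi 10127 were. The summed FPKM over all genes was 256196 in PWK-Xi and 285397 in B6-Xi. Fibroblast markers were present in both lines but did not differ in one direction. Col1a2 had 69.2 FPKM in PWK-Xi and 134.3 FPKM in B6-Xi, while Pdgfra had 28.2 FPKM in PWK-Xi and 7.13 FPKM in B6-Xi and Pdgfrb had 21.4 FPKM in PWK-Xi and 10.2 FPKM in B6-Xi. Vim, itself a fibroblast marker, was listed at 0 in both, for a reason that was not tested. A listed 0, here and below, is therefore not taken to show that a gene is silent. Of 8 fibroblast markers, 7 were above 0 in each line. Of these, 2 were at least 2-fold higher in PWK-Xi and 2 at least 2-fold lower. Among all 5490 genes that reached 5 FPKM in one line or both, these shares were 17.8% and 5.83%. Relative to the median gene (defined below), 1 marker was higher and 4 were lower, with a median log2 difference of -1.07. The markers summed to 2482 FPKM in PWK-Xi and 13228 FPKM in B6-Xi, sums that S100a4 dominates. Epithelial markers summed to 2.08 FPKM in PWK-Xi and 2.68 FPKM in B6-Xi (6 genes, Epcam at 0 in both), endothelial markers to 0.205 FPKM in PWK-Xi and 0.0476 FPKM in B6-Xi (5 genes, Cdh5 and Emcn at 0 in both) and immune markers to 6.14 FPKM in PWK-Xi and 3.27 FPKM in B6-Xi (5 genes, Emr1 at 0 in both). Chondrocyte and osteoblast markers summed to 4.76 FPKM in PWK-Xi and 20.4 FPKM in B6-Xi (6 genes, Col2a1, Col9a1 and Bglap at 0 in both), nearly all of it Sox9, with 3.85 FPKM in PWK-Xi and 19.3 FPKM in B6-Xi. The part of any of these cell types in the differences below was not tested. In such bulk samples fewer cells of a type and less RNA per cell cannot be told apart.

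Among the 10 members, the highest level was that of Dcn in PWK-Xi and that of Sparc in B6-Xi. In PWK-Xi the order of levels was Dcn with 456.4 FPKM, Thbs2 with 255.5, Sparc with 252.4, Tnc with 119.9, Thbs1 with 51.8, Fn1 with 32.7, Vcan with 16.7, Postn with 10.3, Lum with 7.20 and Fmod with 0.377 FPKM. In B6-Xi it was Sparc with 579.5 FPKM, Thbs1 with 125.9, Thbs2 with 114.8, Dcn with 79.1, Fn1 with 24.3, Postn with 7.28, Vcan with 5.29, Tnc with 4.50, Fmod with 1.14 and Lum listed at 0. Without replicates it cannot be said which neighbours in these orders differ. Thbs2 and Sparc in PWK-Xi, and Thbs1 and Thbs2 in B6-Xi, lay close together. The 10 genes together held 1203 FPKM in PWK-Xi and 941.8 FPKM in B6-Xi, which was 0.470% of all FPKM in PWK-Xi and 0.330% in B6-Xi. Dcn made 37.9% of that sum in PWK-Xi and 8.40% in B6-Xi, and Sparc made 21.0% in PWK-Xi and 61.5% in B6-Xi.

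**Figure D1:**
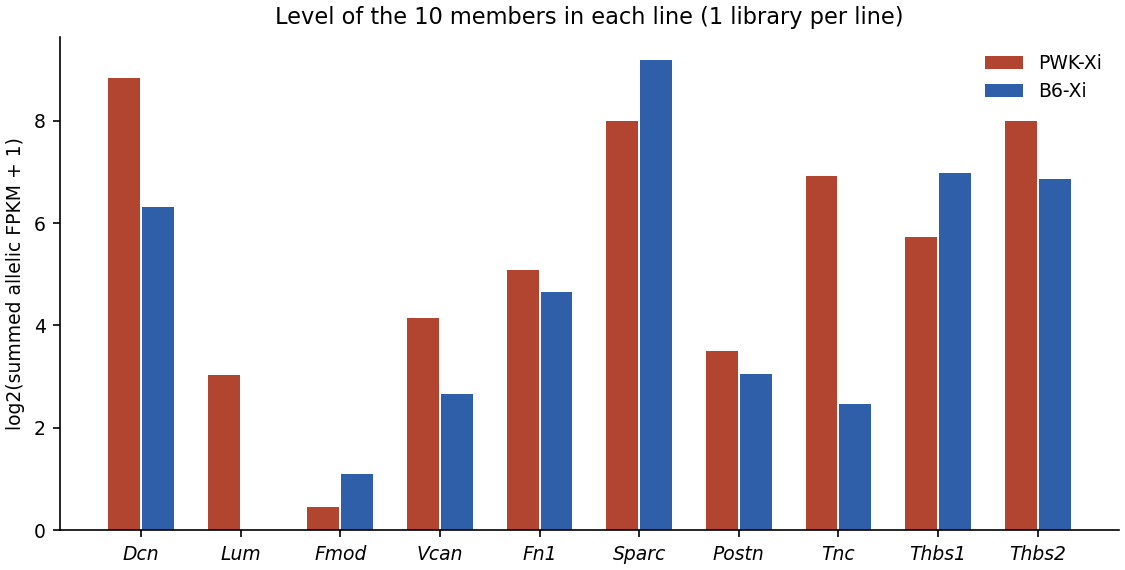
Level of each member in PWK-Xi (left bar of each pair) and B6-Xi (right bar), as log2 of the summed FPKM of both alleles plus 1, with 1 library per line and no error bar. Dcn and Tnc stand higher in PWK-Xi, Sparc and Thbs1 in B6-Xi, and Lum has no bar in B6-Xi because it was listed at 0.

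Differences below are PWK-Xi over B6-Xi. Folds are ratios of FPKM as deposited, while log2 values are log2((PWK-Xi + 1)/(B6-Xi + 1)) less 0.19, the median of the 5241 genes that were above 0 in each line and reached 5 FPKM in one of them. The pseudocount of 1 FPKM understates the difference of low genes. A gene counted as past 2-fold by the log2 value before the median was taken off. Of the 10 members 9 reached 5 FPKM in one line or both, and Lum and Tnc did so in PWK-Xi only. Of those 9, 5 were at least 2-fold higher in PWK-Xi (Dcn, Lum, Vcan, Tnc and Thbs2), 2 were at least 2-fold lower (Sparc and Thbs1) and 2 were within 2-fold (Fn1 and Postn). Among all 5490 genes that reached 5 FPKM, 17.8% were 2-fold higher and 5.83% 2-fold lower, and 7.05% were 4-fold higher, as Dcn, Lum and Tnc were. For Lum, at 0 in B6-Xi, that call rests on the pseudocount: before the median was taken off, its log2 value was 3.03 with 1 FPKM, 6.19 with 0.1 FPKM and 1.29, under 4-fold, with 5 FPKM. Another 1.33% were 4-fold lower, and no member was. The median log2 difference was 0.95 for the 9 members and 0.03 for all 5490 genes. The members were chosen with these totals in view, so nothing is read from their counts beside these shares.

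Decorin was the most abundant of the 3 small proteoglycans and was higher in PWK-Xi. Dcn had 456.4 FPKM in PWK-Xi and 79.1 FPKM in B6-Xi, 5.77-fold higher in PWK-Xi, with a log2 difference of 2.32. It was the 95th most abundant gene in PWK-Xi and the 437th in B6-Xi. Both of its alleles were higher in PWK-Xi, the B6 allele with 225.4 FPKM against 53.4 FPKM in B6-Xi (4.22-fold) and the PWK allele with 231.0 FPKM against 25.7 FPKM in B6-Xi (8.99-fold). Its 20 neighbours on chromosome 10, the 10 nearest genes on each side with at least 1 FPKM in both lines, had a median log2 difference of 0.47 in total, and Dcn stood above all 20. By allele, with no median taken off, the B6 allele of Dcn (2.06) was above all 20, whose median was 0.13, but the PWK allele (3.12) was below 2 of 20, whose median was 1.20 and highest value 3.44.

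Lumican and fibromodulin, close relatives of decorin that carry keratan sulfate chains, were far scarcer. Lum, which lies beside Dcn on chromosome 10, had 7.20 FPKM in PWK-Xi and was listed at 0 in B6-Xi, so no fold is given. Such a 0 was not rare: it held for 4.76% of the 5065 genes that reached 5 FPKM in PWK-Xi. In PWK-Xi the PWK allele of Lum had 6.35 FPKM and the B6 allele 0.843 FPKM, a B6 share of 11.7%, below all 20 neighbours (36.4% to 72.7%), whereas Dcn had a B6 share of 49.4% in the same library. Fmod, on chromosome 1, had 0.377 FPKM in PWK-Xi, all from B6, and 1.14 FPKM in B6-Xi, 50.0% from B6. Both values are so low that the share of Fmod says little.

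Versican was higher in PWK-Xi on both alleles. Vcan, on chromosome 13, had 16.7 FPKM in PWK-Xi and 5.29 FPKM in B6-Xi, 3.15-fold higher in PWK-Xi, with a log2 difference of 1.29. Its B6 allele had 7.43 FPKM in PWK-Xi and 3.35 FPKM in B6-Xi, and its PWK allele had 9.22 FPKM in PWK-Xi and 1.94 FPKM in B6-Xi. The PWK allele thus differed more, 4.75-fold against 2.22-fold for the B6 allele. In total, the difference of Vcan was above those of all 20 neighbours, whose median log2 difference was 0.33. By allele it was not, since 5 of 20 were higher on the B6 allele and 1 of 20 on the PWK allele.

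Fibronectin was within 2-fold. Fn1 had 32.7 FPKM in PWK-Xi and 24.3 FPKM in B6-Xi, 1.35-fold higher in PWK-Xi. Its B6 allele was 1.72-fold higher in PWK-Xi, with 18.1 FPKM against 10.5 FPKM in B6-Xi. Its PWK allele was nearly level, with 14.6 FPKM in PWK-Xi and 13.7 FPKM in B6-Xi. With no median taken off, the B6 allele of Fn1 had a log2 difference of 0.73 and the PWK allele 0.08. Its 20 neighbours on chromosome 1 had medians of 0.65 on the B6 allele and -0.39 on the PWK allele. Of these 20, 8 were higher than Fn1 on the B6 allele and 4 on the PWK allele. Inside each library, on the FPKM scale, Tnc stood at 3.67 times the level of Fn1 in PWK-Xi and at 0.185 times in B6-Xi.

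SPARC, a collagen-binding glycoprotein, was lower in PWK-Xi. Sparc, on chromosome 11, had 252.4 FPKM in PWK-Xi and 579.5 FPKM in B6-Xi, 2.30-fold lower in PWK-Xi, with a log2 difference of -1.39. Its B6 allele had 143.3 FPKM in PWK-Xi and 302.0 FPKM in B6-Xi, and its PWK allele had 109.1 FPKM in PWK-Xi and 277.5 FPKM in B6-Xi. Both alleles were thus lower, 2.11-fold for B6 and 2.54-fold for PWK. Of its 20 neighbours 19 had a higher log2 difference, and the median of all 20 was -0.39. Within each library, the ratio of Dcn to Sparc was 1.81 in PWK-Xi and 0.136 in B6-Xi, a quantity that no scaling of a whole library changes.

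Periostin, a fasciclin-domain protein of collagen-rich tissue, was within 2-fold in total but not on each allele. Postn, on chromosome 3, had 10.3 FPKM in PWK-Xi and 7.28 FPKM in B6-Xi, 1.41-fold higher in PWK-Xi. The B6 allele had 6.35 FPKM in both lines. The PWK allele had 3.93 FPKM in PWK-Xi and 0.933 FPKM in B6-Xi, 4.21-fold higher in PWK-Xi, so the whole of the small difference in total lay on that allele.

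Tenascin-C, a large glycoprotein of embryonic and healing tissue, showed the widest difference of the members present in both lines. Tnc had 119.9 FPKM in PWK-Xi and 4.50 FPKM in B6-Xi, 26.7-fold higher in PWK-Xi, with a log2 difference of 4.26. Of all 5490 genes that reached 5 FPKM, 57 had a larger one, and 6 did when genes at 0 in a line were left out. Tnc lies on chromosome 4 among neighbours that were listed without any B6 expression in B6-Xi. Over the other genes of chromosome 4 the median B6 share in B6-Xi was 42.9%. The B6 allele of Tnc had 74.6 FPKM in PWK-Xi and was listed at 0 in B6-Xi. The PWK allele was also higher, with 45.2 FPKM in PWK-Xi and 4.50 FPKM in B6-Xi, a 10.1-fold difference on the allele that was seen in both lines. On the log2 scale with the pseudocount, and without the median taken off, the PWK allele of Tnc differed by 3.07, whereas the PWK alleles of its 20 neighbours had a median of 0.18 and a highest value of 1.15. On the same scale the B6 allele of Tnc differed by 6.24. The B6 alleles of its 20 neighbours had a median of 1.92, and 1 of 20 was above Tnc. In total, the 20 neighbours had a median log2 difference of 0.72 and a highest value of 1.59. The chromosome 4 neighbours shared the B6 value of 0 with Tnc but did not reach its difference on the PWK allele.

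The pair of thrombospondins, related glycoproteins that restrain vessel growth, differed in opposite directions. Thbs1, which also activates latent TGF-beta, had 51.8 FPKM in PWK-Xi and 125.9 FPKM in B6-Xi, 2.43-fold lower in PWK-Xi, with a log2 difference of -1.46. Thbs2 had 255.5 FPKM in PWK-Xi and 114.8 FPKM in B6-Xi, 2.22-fold higher in PWK-Xi, with a log2 difference of 0.95, which is under 2-fold once the median gene is taken off. The ratio of Thbs2 to Thbs1 was 4.94 in PWK-Xi and 0.912 in B6-Xi. For each gene both alleles differed in the same direction. The B6 and PWK alleles of Thbs1 were 2.74-fold and 2.25-fold lower in PWK-Xi, and those of Thbs2 were 2.15-fold and 2.31-fold higher. Thbs1, on chromosome 2, was below all 20 of its neighbours, whose median log2 difference was 0.02, and Thbs2, on chromosome 17, was above 16 of 20, whose median was -0.10.

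**Figure D2:**
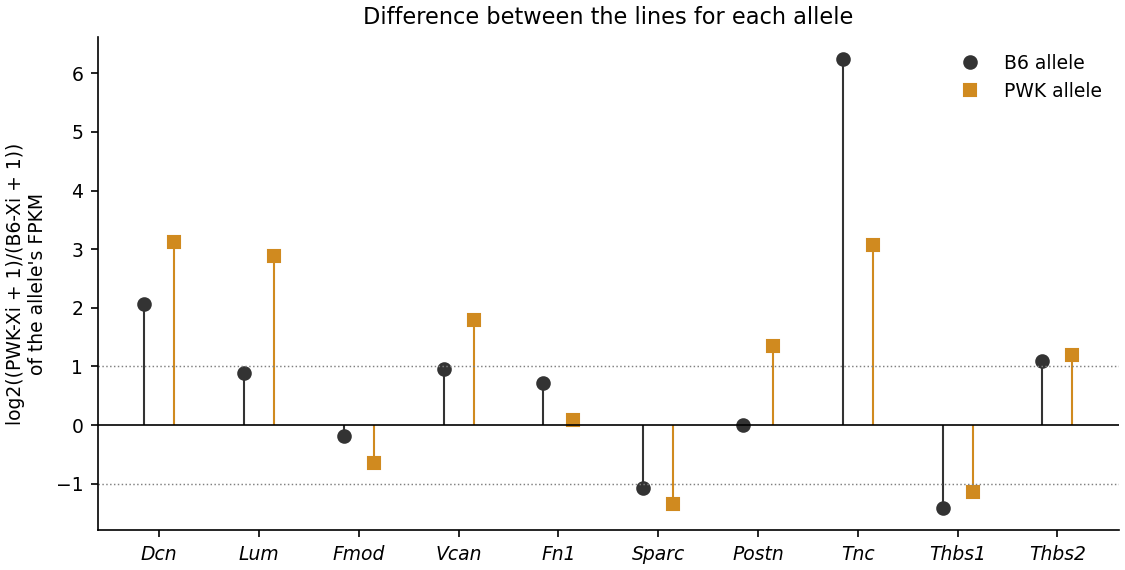
Log2((PWK-Xi + 1)/(B6-Xi + 1)) of the FPKM of the B6 allele (circles) and of the PWK allele (squares) of each member, with dotted lines at 2-fold and no median taken off. The alleles of Sparc and Thbs1 both lie below 0, those of Dcn, Tnc and Thbs2 both lie past 2-fold above it, and the B6 allele of Postn lies at 0.

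Of the 9 members that reached 5 FPKM, 3 were at least 2-fold higher on both alleles (Dcn, Tnc and Thbs2) and 2 at least 2-fold lower on both (Sparc and Thbs1). These counts use log2 values with the pseudocount and no median taken off. The B6 allele of Tnc, listed at 0 in B6-Xi, has no fold without the pseudocount. Vcan is not among the 3, because its B6 allele, 2.22-fold higher as deposited, had a log2 value of 0.95 with the pseudocount. Of all 5490 genes, 7.45% were 2-fold higher on both alleles and 2.46% were 2-fold lower on both. These values come from the comparison that chose the members.

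The allelic shares of 8 members could be compared, namely those that reached 1 FPKM in each line. The autosomal median B6 share was 52.7% in PWK-Xi and 50.0% in B6-Xi. Dcn had a B6 share of 49.4% in PWK-Xi and 67.5% in B6-Xi. Vcan had 44.6% in PWK-Xi and 63.3% in B6-Xi. Postn had 61.8% in PWK-Xi and 87.2% in B6-Xi. These 3 had a share at least 15 points lower in PWK-Xi, and Tnc, with 62.3% in PWK-Xi and 0% in B6-Xi, had one at least 15 points higher. The other 4 were less than 15 points apart. Sparc had 56.8% in PWK-Xi and 52.1% in B6-Xi, and Fn1 had 55.3% in PWK-Xi and 43.4% in B6-Xi. Thbs1 had 37.9% in PWK-Xi and 42.7% in B6-Xi, and Thbs2 had 52.2% in PWK-Xi and 54.0% in B6-Xi. Of 7435 autosomal genes measured the same way, 46.4% were 15 points or more apart, 19.0% with a lower share in PWK-Xi and 27.4% with a higher one, so 4 of 8 members is close to the background.

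Set beside their 20 chromosome neighbours, 1 of 8 members lay outside the range of the neighbours' B6 shares in each line. Of 7435 autosomal genes 9.43% did so in PWK-Xi and 7.45% in B6-Xi, so these counts are close to the background. In B6-Xi the neighbours of Dcn, Vcan, Thbs1 and Thbs2 ran from 0% to 100%. No share of these genes could lie outside that range, so being inside it says nothing about them. In B6-Xi, Dcn lay above 8 of 20 neighbours, whose median B6 share was 73.0%, and Tnc shared 0% with all 20 of its neighbours. Vcan and Thbs2 lay inside the range of their neighbours in PWK-Xi, and their neighbour medians in B6-Xi were 57.9% and 52.3%. Fn1 lay apart from its neighbours in PWK-Xi. Its B6 share of 55.3% was below all 20 neighbours on chromosome 1, which ran from 61.9% to 90.2% with a median of 72.7%, while in B6-Xi 43.4% for Fn1 lay within neighbours of 14.3% to 80.0%. Over the other genes of chromosome 1 the median B6 share was 70.2% in PWK-Xi and 51.5% in B6-Xi. In PWK-Xi the share of Fn1 was thus nearer to the autosomal median of 52.7% than to that of its chromosome. Postn lay apart in B6-Xi. Its 87.2% was above all 20 neighbours on chromosome 3, which reached 71.8% with a median of 52.3%, and in PWK-Xi its 61.8% was above 17 of 20. Thbs1 leaned to PWK in both lines, while its neighbours had median B6 shares of 51.2% in PWK-Xi and 64.0% in B6-Xi. The B6 share was higher than that of Thbs1 in 18 of 20 neighbours in PWK-Xi and in 17 of 20 in B6-Xi. Sparc lay above 13 of 20 neighbours in each line.

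**Figure D3:**
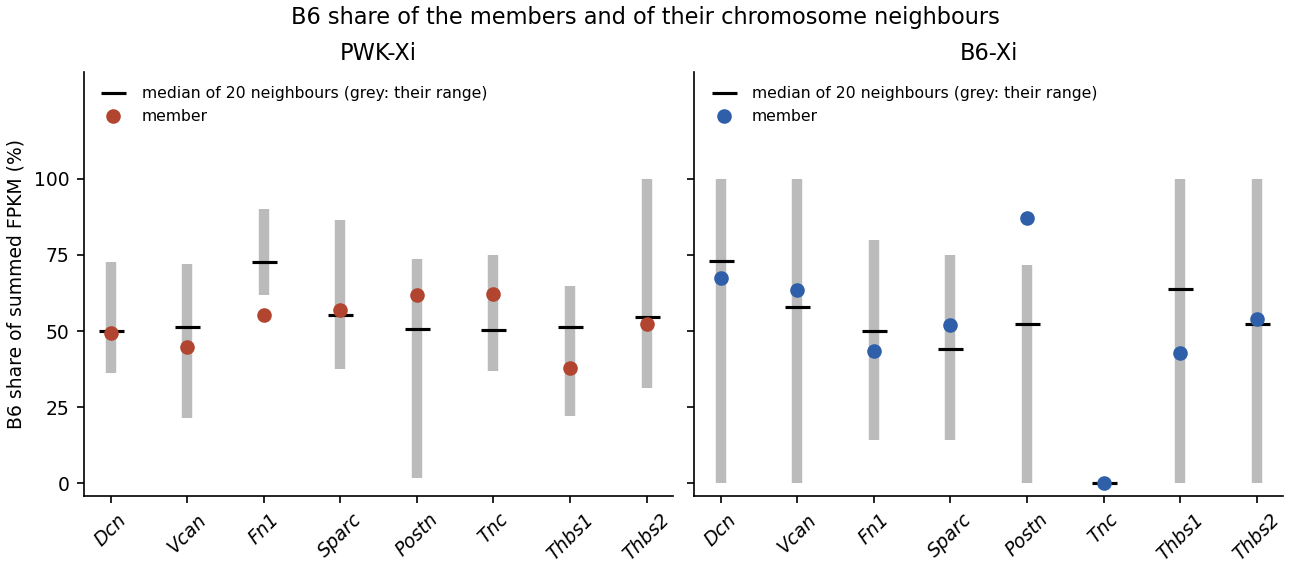
B6 share (percent of summed FPKM) of the 8 members with at least 1 FPKM in both lines (points), in PWK-Xi (left panel) and B6-Xi (right panel), with the median (dash) and the range (grey bar) of the 20 nearest genes of at least 1 FPKM. Fn1 lies below its grey bar in PWK-Xi, Postn lies above its grey bar in B6-Xi, and Tnc in B6-Xi lies at 0% with all its neighbours.

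**Figure D4:**
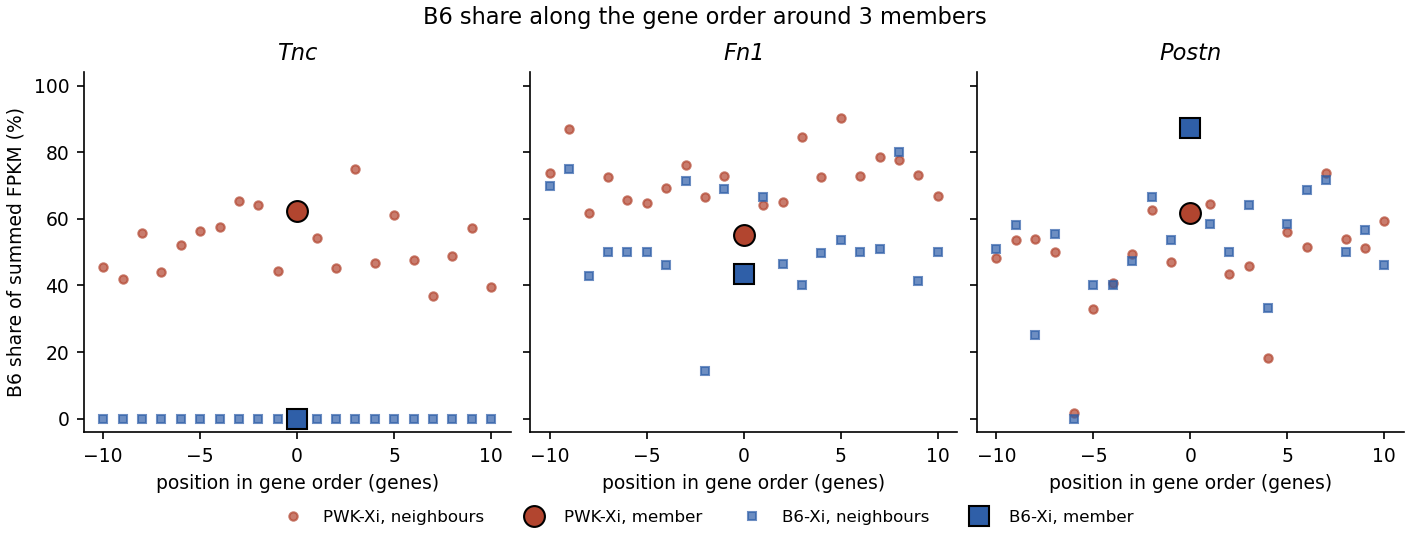
B6 share (percent) of Tnc, Fn1 and Postn (large symbols at 0) and of the 10 nearest genes of at least 1 FPKM on each side, by position in gene order, in PWK-Xi (circles) and B6-Xi (squares). Around Tnc all squares lie at 0% while the circles run from 36.8% to 75.0%, Fn1 in PWK-Xi lies below every circle around it, and Postn in B6-Xi lies above every square.

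By the distance between their 4 values (log2 of allelic FPKM plus 1, in 2 lines and 2 alleles), the gene nearest to each of the 8 members with enough expression in both lines (not Lum or Fmod) was sought among 7626 genes outside the lists with at least 1 FPKM in both lines. Mkks was nearest to Postn at a distance of 0.11, Cks1b to Thbs2 at 0.14, Sub1 to Fn1 at 0.15, Abhd4 to Vcan at 0.24, Ly6a to Sparc at 0.29 and Mrps24 to Thbs1 at 0.62. Tnc and Dcn had no close match. The nearest gene to Tnc was Ptx3 at 1.09, with 87.7 FPKM in PWK-Xi and 6.56 FPKM in B6-Xi and a B6 share of 42.7% in PWK-Xi and 0% in B6-Xi. For Dcn it was Cks1b at 1.61. With 4 values from 2 libraries many genes lie near any pattern.

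Relatives and partners of these genes were read from lists written with earlier results of these data known, and a gene was counted as measured where it reached 5 FPKM in one of the lines. The shares of all 5490 genes given above, 17.8% at least 2-fold higher, 5.83% at least 2-fold lower and 76.3% within 2-fold, are the background for each list. Of 13 small leucine-rich proteoglycans other than the members, 3 were measured, too few to describe the family, and 2 of these were at least 2-fold lower in PWK-Xi, with 0 higher, whereas Dcn and Lum were higher. Aspn (asporin), a decorin relative, had 0.554 FPKM in PWK-Xi and 6.16 FPKM in B6-Xi, and Ogn (osteoglycin) had 2.84 FPKM in PWK-Xi and 14.2 FPKM in B6-Xi. Bgn, biglycan, the closest relative of decorin, lies on the X chromosome and had 483.1 FPKM in PWK-Xi and 665.4 FPKM in B6-Xi, within 2-fold. In each line Bgn came from the active X, with 99.99% from B6 in PWK-Xi and 0% from B6 in B6-Xi, so these values set different alleles side by side. The ratio of Dcn to Bgn was 0.945 in PWK-Xi and 0.119 in B6-Xi. The list's median log2 difference was -2.18 over 3 genes. Of 7 other hyaluronan-binding proteoglycans and link proteins, all were under 1 FPKM in both lines, so Vcan was the one member of that family measured.

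Among 20 other genes of the SPARC, periostin, tenascin, thrombospondin and CCN families and osteopontin, 6 were measured, 3 of them at least 2-fold higher in PWK-Xi (2 relative to the median gene) and 0 lower, with a median log2 difference of 0.77. Spp1, osteopontin, had 614.0 FPKM in PWK-Xi and 119.1 FPKM in B6-Xi, 5.16-fold higher in PWK-Xi. Cyr61, a CCN protein, had 79.8 FPKM in PWK-Xi and 36.5 FPKM in B6-Xi, and it falls under 2-fold relative to the median gene. Fstl1, a SPARC relative, had 100.6 FPKM in PWK-Xi and 56.5 FPKM in B6-Xi, within 2-fold. Glycoproteins of elastic and fibronectin fibres had 10 of 15 measured, 4 higher and 0 lower, with a median of 0.29, beside 17.8% and 5.83% of all genes. Efemp1 had 9.16 FPKM in PWK-Xi and 0.139 FPKM in B6-Xi, and Mfap2, a microfibril protein, had 53.4 FPKM in PWK-Xi and 13.8 FPKM in B6-Xi. Efemp2 (108.1 FPKM in PWK-Xi and 124.2 FPKM in B6-Xi) and Ltbp1, which holds latent TGF-beta (40.2 FPKM in PWK-Xi and 34.8 FPKM in B6-Xi), were within 2-fold.

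Receptors and chain-building enzymes were mostly within 2-fold, as 76.3% of all genes were. Of 16 receptors 10 were measured, with 1 higher and 0 lower, and a median log2 difference of -0.08. The one past 2-fold, Itgb5, an integrin chain, was picked out after its value was known. It had 34.1 FPKM in PWK-Xi and 15.7 FPKM in B6-Xi, which is under 2-fold relative to the median gene. Itgb1, the integrin chain shared by many matrix receptors, had 47.6 FPKM in PWK-Xi and 45.5 FPKM in B6-Xi. Cd47, a thrombospondin receptor, had 55.2 FPKM in PWK-Xi and 35.2 FPKM in B6-Xi, and Cd44, the hyaluronan receptor, had 31.5 FPKM in PWK-Xi and 38.2 FPKM in B6-Xi. Of 24 enzymes of glycosaminoglycan synthesis and sulfation 9 were measured, with 1 higher and 0 lower, and a median of 0.06. Csgalnact1, which starts chondroitin chains, had 11.2 FPKM in PWK-Xi and 1.90 FPKM in B6-Xi. Csgalnact2, its relative, had 6.43 FPKM in PWK-Xi and 9.16 FPKM in B6-Xi. Chpf, a chondroitin polymerizing factor, had 11.8 FPKM in PWK-Xi and 7.65 FPKM in B6-Xi. Ugdh, which makes the UDP-glucuronate these chains need, had 63.1 FPKM in PWK-Xi and 31.9 FPKM in B6-Xi.

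**Figure D5:**
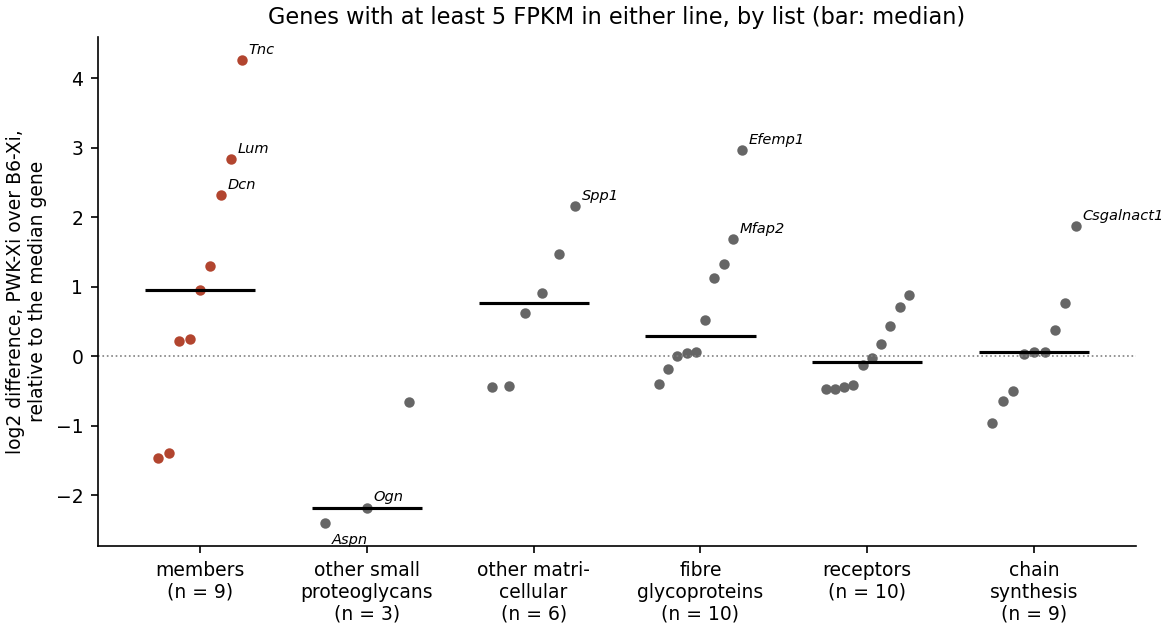
Log2 difference of PWK-Xi against B6-Xi, relative to the median gene, of each gene that reached 5 FPKM in one of the lines, by list, with the list median as a bar; genes beyond 1.6 in either direction are named. Members spread from Thbs1 at -1.46 to Tnc at 4.26, and receptors and chain-synthesis enzymes, apart from Csgalnact1, lie within 1 of 0.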

How the data were processed

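Polyadenylated RNA of 2 fibroblast lines, 1 library each, was made into Smart-seq2 libraries, per the labels' protocols. Build mm9 and the tools HISAT2 2.2.0, StringTie 2.1.1 and Trim Galore 0.6.4 are named in the submitters' processing notes, without their role. The authors deposited FPKM for the B6 and the PWK allele of each gene. Replicates, read counts and the allele assignment were not given in the sources used here, so differences were described by size, with no test. The members and gene lists were chosen with earlier results of these data known.

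From these files the sum of both alleles, the B6 share (no pseudocount) and log2 differences with a pseudocount of 1 FPKM were computed. Named genes were the members, the 3 most abundant measured genes of each list and those past 4-fold, and the nearest gene to each member. Gene order came from GENCODE M21 and RefSeq symbols (95 symbols unmatched), and promoters from RefSeq (GRCm38.p6), considered where a GENCODE start lay within 50 bases and no exon of the gene overlapped. Of the 5 that qualified, Fmod was not printed because of its low level. Scripts ran in Python 3.11.15 with pandas 2.3.3, numpy 2.4.6 and matplotlib 3.10.9. The calls were run on simulated data with large imposed changes and little noise. That checks the code but cannot show the error of the calls in these libraries. Pseudocounts, scalings, filters and single alleles were varied.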

Additional observations from a re-analysis of the deposited data

How the results depend on the processing

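No paired analysis was possible because each line has 1 library, and for the same reason no library could be left out. Of 60 alternative values of the members' log2 differences, 54 stayed on their side of 2-fold, 6 crossed it and none that was past 2-fold changed sign. With the B6 allele alone 3 members were at least 2-fold higher in PWK-Xi (Dcn, Tnc and Thbs2) instead of 5. Thbs2 was under 2-fold relative to the median gene (0.95), Postn passed it on the PWK allele alone (1.35), and Fmod passed it downward with a pseudocount of 0.1 FPKM (-1.38) or with each library scaled to the same summed FPKM (-1.01). Other counts of members stayed within 1.5 times. With no filter on low values 7.52% of all genes were 2-fold higher and 2.01% 2-fold lower in PWK-Xi, and 2.31% were 4-fold higher and 0.339% 4-fold lower. Leaving out genes at 0 in a line, 2.79% were 4-fold higher. With neighbours of at least 5 FPKM, Fn1 in PWK-Xi was again below all 20. Postn in B6-Xi (87.2%) was again above all 20, but the highest of them was 85.4% instead of 71.8%. Of the neighbours of Tnc in B6-Xi 1 was at 54.3% instead of all at 0%, and their median was 44.5% in PWK-Xi. Unknown depth limits the shares of low members, chiefly Fmod, Lum and the PWK allele of Postn.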
